A study of Mus musculus with 11 samples.

Results

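The sensory epithelium of the newborn mouse cochlea was set against mouse embryonic stem cells (ESCs), gene by gene, on 5 of the 11 single-colour arrays of the series. The 3 arrays of cochlear sensory epithelia (CSE) and the 2 arrays of ESCs were chosen by their labels, and the 6 otosphere arrays, made from cultured spheres of cochlear cells, did not enter. Each CSE sample was labelled as native tissue of ICR mice and came from postnatal day 1 animals, with 20 cochleae pooled per dissection and the spiral ligament and stria vascularis removed. The ESCs were undifferentiated cells at passage 13, grown on gelatin without feeders in serum with leukaemia inhibitory factor. ES1 was the line G4-2 and ES2 the line D3, so each line had 1 array and the spread between the ESC arrays holds the difference between lines. No strain was given for the lines and the labels name no engineered allele in either group. The comparison asks which genes separate a differentiated sensory tissue from pluripotent cells.

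The cochlear sensory epithelium holds mechanosensory hair cells and the supporting cells around them, which at birth carry high Notch activity and form gap junctions with one another. Hair cells turn sound-driven deflection of their stereocilia into current through a channel complex at the stereocilia tips, and the epithelium secretes the tectorial membrane that lies over them. Hair cells and supporting cells have left the cell cycle before birth in the mouse. ESCs divide quickly, with a short first gap phase, and hold their state through a circuit of transcription factors around Pou5f1, Sox2 and Nanog. One group was dissected tissue and the other cultured lines, so tissue identity, culture and genetic background cannot be told apart.

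Signal was measured as Cy3 intensity per spot, corrected for local background, put on a log2 scale and quantile-normalized over the 5 arrays. The scanner software flagged 55.1% to 71.6% of spots as well above background, and none as saturated. Of 55681 probes, 45133 passed a filter on dim probes. A gene is given by 1 probe, the one with the highest mean, which left 18298 named genes. A gene was called higher or lower in CSE at a Benjamini-Hochberg adjusted p under 0.05 in limma's moderated test over all probes. Under that rule 20.5% of genes tested were higher in CSE (3742 genes) and 18.2% were lower (3336), together 38.7%, and the median difference over all genes was -0.02 on the log2 scale. Counts over gene lists are to be read beside these shares. The CSE arrays correlated with one another at r = 0.968 to 0.990 and with the ESC arrays at 0.853 to 0.873, over probes. The ESC arrays correlated at 0.960, and 18.0% of 16604 bright probes differed more than 2-fold between them, against 3.08% to 11.3% between CSE arrays. ES1, CSE1 and CSE2 shared the first slide and ES2 and CSE3 the second, so line and slide coincide for the ESCs. Beside a gene whose call was lost with 1 array left out, the highest limma adjusted p so reached is given with that array. Where no array of one group had a probe well above background, a difference is given as a bound. For each array of that group the bound uses either the probe's own signal or the dimmest signal that the scanner flagged there, whichever is higher. Values in parentheses after a gene are log2 differences, CSE minus ESCs, unless given as a fold, and their standard error (SE) had a median of 0.28 over the genes tested, with 80% of genes between 0.22 and 0.49. In a dissected tissue, fewer cells of a type and less RNA per cell cannot be told apart. Nothing states that the CSE arrays came from separate dissections, so p-values measure the spread between these samples only.

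Among genes measured on every array of both groups, the largest differences included secreted and matrix genes in CSE and stem cell genes in ESCs. Sparcl1, a matricellular glycoprotein, read 5.97 and 5.75 on the ESC arrays and 17.65, 17.56 and 17.32 on the CSE arrays. It was 3209-fold higher in CSE on the quantile-normalized scale (log2 difference 11.65, SE 0.23, limma adjusted p = 2.9e-05). The next by size were Ptn (pleiotrophin, a heparin-binding growth factor, 9.59), Ecrg4 (9.54), the proteoglycan Dcn (9.01), the orphan nuclear receptor Nr2f1 (8.85), Igfbp5 (8.73), the gap junction connexin Gjb2 (8.54), the fibrillar collagen Col2a1 (8.44), Kctd12 (8.43) and the integrin Itga8 (8.36). Ptn was uneven between the ESC lines, at 5.56 and 7.75, while its CSE values were 16.18, 16.56 and 15.99. In the other direction Dppa5a, a marker of undifferentiated cells, read 17.26 and 17.20 in ESCs and 6.63, 6.34 and 6.46 in CSE, 1725-fold lower in the tissue. Tdh (threonine dehydrogenase, -9.94), Dnmt3l (a cofactor of DNA methylation, -8.39), Utf1 (-7.73), L1td1 (-7.37), Rhox5 (-7.27), Zscan10 (-7.09), the Nodal antagonist Lefty1 (-7.03) and the cell cycle factor Mybl2 (-6.79) completed the group with Pigp, of glycosylphosphatidylinositol anchor synthesis. Pigp depended on the probe, at -10.18 with one and 1.98 with the other, both past the test.

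Genes well above background in 1 group and not in the other are given by such a bound. No ESC array had Otor well above background, at 5.10 and 5.47, against 17.76, 17.35 and 17.12 in CSE, which makes this gene for a secreted cochlear protein at least 4334-fold higher in the tissue. The same held for Tectb (at least 2387-fold), Col9a1 (at least 2150-fold), Epyc (at least 1383-fold), Lum (at least 1093-fold), Tecta (at least 674-fold), the glial calcium-binding protein S100b (at least 612-fold), the cartilage glycoprotein Cnmd (at least 608-fold), the adult haemoglobin gene Hbb-bt (at least 589-fold) and Fabp7 (at least 486-fold). Conversely no CSE array had Gdf3 well above background, at 4.60, 4.59 and 4.93, against 14.27 and 13.99 in ESCs, at least 572-fold lower in CSE. Fgf4 (at least 368-fold), Tex19.1 (at least 354-fold), Rpl10l (at least 243-fold), Pou5f1-rs4, a sequence related to Pou5f1 (at least 241-fold), Tcl1 (at least 231-fold), Zfp42 (at least 229-fold), Gtsf1l (at least 178-fold) and Nr0b1 (at least 162-fold) followed. In all, 715 called genes of the 18298 tested were well above background on every CSE array and no ESC array, and 249 the reverse. The first count needs 2 arrays without the flag and the second 3. The scanner flagged 63.4% and 55.1% of spots on ES1 and ES2 and 60% to 71.6% on CSE arrays, so the 2 counts are not comparable.

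**Figure D1:**
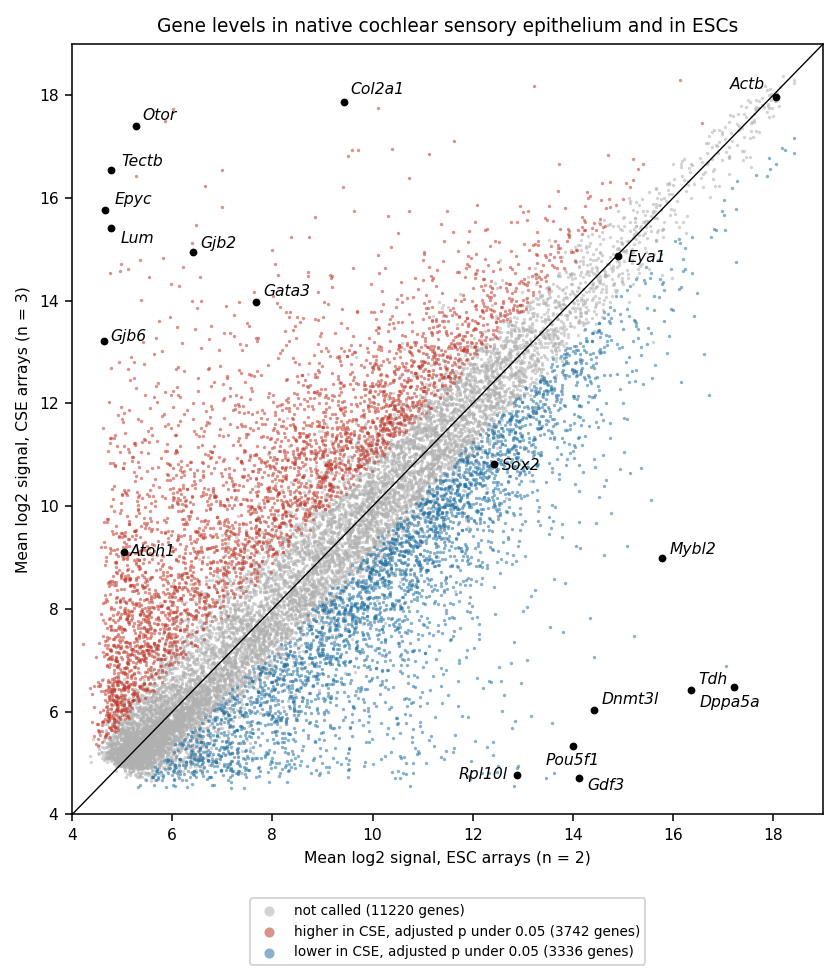
Mean log2 signal of 18298 genes on the 2 ESC arrays (x axis) and the 3 CSE arrays (y axis), 1 point per gene, red for genes higher in CSE, blue for lower and grey for not called; the line marks equality. Otor, Tectb and Epyc lie at the upper left, Dppa5a, Tdh and Gdf3 at the lower right, and Actb and Eya1 lie near the line.

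The pluripotency list, 36 genes for the factors and signals that hold ESCs undifferentiated, was lower in CSE for 30 members (83.3%, against 18.2% of all genes), higher for 1 and not called for 5, with a median difference of -5.73. With the filter on dim probes set to at least 3 arrays, which the ESC arrays alone cannot meet, 28 members were tested and 22 were lower. Pou5f1, the central factor of the circuit, read 13.91 and 14.11 in ESCs and 5.50, 5.18 and 5.33 in CSE (-8.67, SE 0.22, limma adjusted p = 5.3e-05). No value of one group came near the other. Its partner Sox2, which supporting cells also use, was well above background in both, at 12.52 and 12.32 in ESCs and 10.75, 10.69 and 11.02 in CSE, a difference of -1.60 (SE 0.23). Esrrb (-4.80), Klf2 (-4.39), Klf5 (-3.58), Tfcp2l1 (-4.16), Nr5a2 (-4.72), Otx2 (-1.86) and Sall4 (-1.65) were lower but still well above background on every CSE array. The calls of Klf2 and Sall4 were lost with 1 array left out (limma adjusted p up to 0.099 without ES1 and 0.061 without ES1). Klf4 read 12.98 and 11.72 in ESCs and 11.59, 11.36 and 13.43 in CSE, with the highest of the 5 values on CSE3, and it did not pass the test (limma adjusted p = 0.85). Stat3 (-0.53), Foxd3 (-1.36), Tbx3 (-1.63) and Rif1 (0.39) did not pass either. Rif1 read 6.90 and 11.96 in the ESC lines, on either side of its CSE values of 9.66, 10.10 and 9.69.

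Nanog was the list's exception, and it rested on the probe. The probe with the highest mean read 8.34 and 8.09 in ESCs and 9.23, 10.17 and 10.15 in CSE, 1.64 higher in the tissue (limma adjusted p up to 0.068 without CSE3). A second probe of the same gene read 12.34 and 10.39 in ESCs and 5.26, 5.33 and 5.12 in CSE, a difference of -6.13, and was not well above background on any CSE array. Probes of Sall4 ranged from -7.07 to -1.65, of Tdgf1 (a Nodal coreceptor) from -7.41 to -3.25 and of Gdf3 from -9.42 to -3.30, each called lower, although the named Tdgf1 probe was not called without 1 array (limma adjusted p up to 0.16 without ES1). What each probe matched in the genome was not tested.

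The promoters of 3 members of this circuit are shown because they hold the octamer letters ATGCAAA, a form of the site that Pou5f1 binds, in the 250 bases before the start. Here and in later groups the window is that of the most upstream start in RefSeq (build GRCm38.p6), motifs were sought on both strands, and capitals mark every match to the octamer, the Sox motif ACAAAG, the Rfx motif GTTGCC, the E-box CAGCTG or the E2F site TTCCCGC. The octamer was in 3.43% of the promoters of genes tested, and in 13.6% of the 22 pluripotency promoters in the table, Nanog, Sox2 and Zfp42. Its share over the gene lists ran from 0.0% to 14.3%, the highest being the Hox genes, with 12.5% for the tectorial matrix and immediate early lists. Sox2 also holds the Sox motif, which was in 13.8% of promoters. The windows are chr8:43307010-43307259 for Zfp42 (minus strand), chr3:34649745-34649994 for Sox2 (plus) and chr6:122707239-122707488 for Nanog (plus). A match is a description of letters only.
Zfp42: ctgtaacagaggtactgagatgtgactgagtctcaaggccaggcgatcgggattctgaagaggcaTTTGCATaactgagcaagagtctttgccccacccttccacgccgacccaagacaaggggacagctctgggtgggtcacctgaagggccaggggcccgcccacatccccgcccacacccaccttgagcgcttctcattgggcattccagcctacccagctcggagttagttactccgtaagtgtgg
Sox2: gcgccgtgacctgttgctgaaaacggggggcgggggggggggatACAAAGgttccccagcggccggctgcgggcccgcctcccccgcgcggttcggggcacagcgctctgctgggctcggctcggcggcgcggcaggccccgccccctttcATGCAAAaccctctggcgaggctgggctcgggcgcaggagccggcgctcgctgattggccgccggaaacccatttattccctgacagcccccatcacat
Nanog: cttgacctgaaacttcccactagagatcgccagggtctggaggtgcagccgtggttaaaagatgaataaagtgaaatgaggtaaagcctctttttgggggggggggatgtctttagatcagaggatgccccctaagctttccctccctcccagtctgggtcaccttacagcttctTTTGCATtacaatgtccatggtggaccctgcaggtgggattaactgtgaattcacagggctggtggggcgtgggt

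The Lin28 program holds RNA-binding proteins and Myc factors that sustain growth in early cells. Of its 14 genes 8 were lower in CSE (57.1%, against 18.2% of all genes), 1 higher and 5 not called. Their median was -1.79, or -1.17 within the first slide. Lin28a, which blocks maturation of let-7 microRNAs, read 13.55 and 13.54 in ESCs and 7.50, 7.56 and 7.88 in CSE (-5.90). Igf2bp1 (-6.08), Trim71 (-5.98), the chromatin protein Hmga1 (-3.66) and Mycn (-3.65) were lower by more than 8-fold. The paralogues Hmga2 (-0.45), Mycl (-0.29) and Igf2bp2 (0.02) did not pass the test. Tut7, a uridylyltransferase that acts with Lin28 proteins, was higher in CSE (1.51).

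Germline and meiosis genes include many that DNA methylation silences in somatic tissue. Of 32 members 2 were below the filter on dim probes, 23 were lower in CSE, 1 was higher and 6 were not called, and 16 were not well above background on any CSE array. A member could pass that filter through the 2 ESC arrays alone, so this count is no support for a direction. With at least 3 arrays required, 18 members were tested and 13 were lower. Without ES1 20 were tested and 14 lower, and without ES2 18 and 13. Tex19.1 read 12.95 and 13.96 in ESCs and 4.76, 4.76 and 4.62 in CSE. Rpl10l, an autosomal copy of a ribosomal protein gene used in spermatogenesis, read 12.51 and 13.27 in ESCs and 4.47, 4.80 and 5.01 in CSE. The piRNA pathway genes Mael (at least 63.4-fold lower), Tdrd12 (at least 21.97-fold), Piwil2 (at least 9.98-fold) and Mov10l1 (at least 5.23-fold), the germ cell helicase Ddx4 (at least 14.2-fold) and the meiotic genes Hormad1 (at least 4.29-fold), Dmc1 (at least 4.66-fold) and Tex11 (at least 6.03-fold) were called lower, but Dmc1 lost the call with 1 array left out (limma adjusted p up to 0.071 without CSE3). The synaptonemal complex gene Syce1 (-5.22) and the cohesin subunit Stag3 (-4.05) were lower with signal in both groups. Sycp3 was above 9 on ES2 only, at 5.79 and 9.27, and did not pass the test. Nanos3 was the member called higher (0.96, limma adjusted p = 0.049, up to 0.14 without ES2).

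Of 29 DNA methylation and chromatin genes 13 were lower in CSE (44.8%, against 18.2% of all genes), 4 higher and 12 not called. Their median was -1.21, or -0.77 without ES2. The de novo methyltransferase Dnmt3b read 14.35 and 15.83 in ESCs and 9.26, 9.12 and 9.32 in CSE (-5.85), whereas its paralogue Dnmt3a read 9.97 and 8.78 in ESCs and 13.64, 12.83 and 12.76 in CSE (3.70 higher in CSE, SE 0.45). The maintenance genes Dnmt1 (-1.93) and Uhrf1 (-2.90) and the dioxygenase Tet1 (-1.58) were lower in CSE, and Tet2 (-0.35) and Tet3 (-0.68) did not pass the test. Of the Polycomb genes Ezh2 (-1.52), Eed (-2.21), Jarid2 (-2.72), Phf19 (-1.89) and Cbx7 (at least 7.39-fold) were lower, and Ezh1 (-0.57), Suz12 (-0.89) and Mtf2 (-0.75) were not called. The chromatin remodelling ATPase Smarca2 read 5.89 and 6.12 in ESCs and 10.60, 10.49 and 10.57 in CSE, a difference of 4.55, while its alternative Smarca4 read 14.73 and 14.36 in ESCs and 14.53, 14.45 and 14.49 in CSE (limma adjusted p = 0.89). The complex members Smarcd3 (2.48) and Smarcc2 (1.34) were higher in CSE. The calls of Tet1 and Ezh2 were lost with 1 array left out (limma adjusted p up to 0.067 without ES2 and 0.069 without ES1).

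DNA replication and mitosis genes were lower in CSE in 27 of 29 measured members, with none higher (93.1% lower, median -3.55). Mybl2, a regulator of mitotic genes, read 16.30 and 15.26 in ESCs and 9.24, 8.69 and 9.04 in CSE. The replicative helicase subunit Mcm5 read 14.62 and 14.62 in ESCs and 10.56, 10.29 and 10.32 in CSE (-4.23, SE 0.21, limma adjusted p = 0.00017). All 5 values of Pcna, the sliding clamp, were high, at 14.47 and 15.07 in ESCs and 13.60, 13.17 and 12.96 in CSE, and its difference was -1.52 (limma adjusted p up to 0.058 without ES2). Licensing factors Cdt1 (-4.22) and Cdc6 (-4.21), cyclins Ccne1 (-4.90), Ccnb1 (-3.83) and Ccna2 (-2.54), and mitotic kinases Aurka (-4.44), Plk1 (-4.35) and Bub1b (-4.43) were lower. Tyms (-0.81, limma adjusted p = 0.063) did not pass the test, nor did the proliferation marker Mki67. Mki67 read 10.03 and 12.77 in ESCs and 12.08, 11.91 and 11.33 in CSE, so the CSE values lay between those of the ESC lines, and a second probe differed by 0.23. The list's median was -3.49 within the first slide and -3.64 within the second.

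The E2F site was in 5.82% of the promoters of genes tested, 7.84% of those lower in CSE and 5.23% of those higher. It was in 8.0% of the 25 replication and mitosis promoters and 21.4% of the 28 germline promoters in the table, within a range of 0.0% to 21.4% over the gene lists. Cdc6, Mcm7 and Rpl10l are shown because each holds it and was lower in CSE (Mcm7 -2.70). Their windows are chr11:98907901-98908150 (plus strand), chr5:138171884-138172133 (minus) and chr12:66284402-66284651 (minus), the last with an E-box and a Sox motif as well.
Cdc6: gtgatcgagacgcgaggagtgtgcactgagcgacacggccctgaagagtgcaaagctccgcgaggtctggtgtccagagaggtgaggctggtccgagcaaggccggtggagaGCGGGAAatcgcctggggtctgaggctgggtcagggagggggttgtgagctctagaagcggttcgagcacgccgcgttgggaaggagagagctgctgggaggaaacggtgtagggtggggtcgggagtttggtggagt
Mcm7: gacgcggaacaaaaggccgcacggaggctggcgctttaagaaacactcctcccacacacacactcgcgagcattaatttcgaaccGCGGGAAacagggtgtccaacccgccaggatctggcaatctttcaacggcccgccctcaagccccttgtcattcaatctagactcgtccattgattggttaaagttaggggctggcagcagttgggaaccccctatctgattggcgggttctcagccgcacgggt
Rpl10l: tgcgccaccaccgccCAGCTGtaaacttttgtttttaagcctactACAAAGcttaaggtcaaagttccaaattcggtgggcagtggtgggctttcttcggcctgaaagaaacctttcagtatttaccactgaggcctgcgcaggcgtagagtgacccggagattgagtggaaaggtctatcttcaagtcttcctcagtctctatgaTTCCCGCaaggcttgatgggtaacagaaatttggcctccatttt

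Of 19 genes listed for cell cycle exit 10 were higher in CSE (52.6%, against 20.5% of all genes), 2 lower and 7 not called. Their median was 1.27, but 0.75 without ES2, 0.71 and 0.74 under the processed-signal and median scalings, 0.89 within the first slide and 0.43 in the deposited table. Cdkn1b, the kinase inhibitor that holds supporting cells and hair cell precursors out of division, read 10.76 and 10.30 in ESCs and 13.12, 12.98 and 13.19 in CSE (2.56). Its relative Cdkn1c was higher by 3.77, and Gas1 (5.01), Btg1 (3.22), Rb1 (1.56) and Rbl2 (1.52) were higher too. Ccnd2, a D-type cyclin that promotes division rather than exit, was also higher (2.91). Cdkn2c (1.57) and Cdkn2d (1.27) passed with all arrays but lost the call in 9 and 11 alternatives (limma adjusted p up to 0.11 without ES2 and 0.13 without ES2). Cdkn2a, which senescent cells express, read 11.07 and 10.49 in ESCs and 5.60, 5.01 and 5.60 in CSE and was lower (-5.38), as was its neighbour Cdkn2b (-1.99, limma adjusted p up to 0.12 without CSE3). Cdkn1a (0.17) and Ccnd1 (0.46), also a D-type cyclin, did not pass the test.

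**Figure D2:**
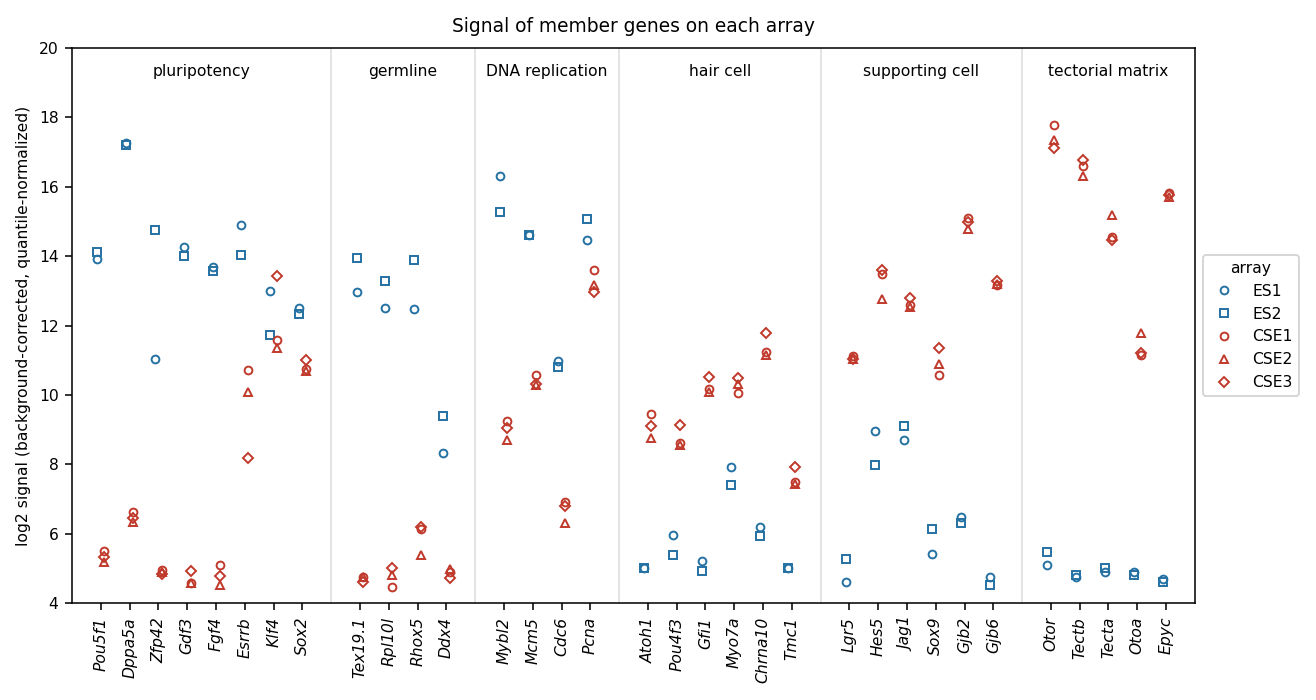
Log2 signal (y axis) of selected pluripotency, germline, DNA replication, hair cell, supporting cell and tectorial matrix genes on each array, ESC arrays in blue and CSE arrays in red, 1 symbol per array. The groups do not overlap for any gene shown except Klf4, and Sox2 and Pcna differ by less than 2 on the log2 scale. Over all genes tested, the groups do not overlap for 64.5%.

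Genes of threonine, one-carbon and glucose metabolism were more often lower than higher in CSE. Tdh, which breaks down threonine in mouse ESCs, read 16.58 and 16.13 in ESCs and 6.25, 6.78 and 6.22 in CSE. Together with it 11 of 16 genes of threonine and one-carbon metabolism were lower in CSE (68.8%) and none was higher (median -1.996), including Gldc (-5.04), Shmt1 (-5.11), Mthfd1 (-3.09) and Mthfd2 (-2.92). The serine synthesis genes Phgdh (0.46), Psat1 (0.08) and Psph (0.23) did not pass the test. Of 22 glycolysis genes 13 were lower (59.1%, against 18.2% of all genes), 3 higher and 6 not called (median -1.22). With the replicate number as a block 8 were lower, and within the first slide 7. The transporters Slc2a3 (-6.52), Slc2a1 (-2.94) and Slc16a3 (-4.85) and the first kinase Hk2 (-3.94) had the largest shifts in this list. The isoenzymes Aldoc, at 13.25 and 12.28 in ESCs and 15.52, 15.38 and 15.73 in CSE, Eno2 (2.58) and Ldhb (1.26) were higher in CSE, while Aldoa (-1.06), Eno1 (-1.53) and Ldha (-1.34) were lower. The calls of Ldhb, Aldoa and Ldha were lost with 1 array left out (limma adjusted p up to 0.12 without CSE1, 0.06 without CSE3 and 0.051 without CSE3).

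Hair cell genes stood higher in CSE. Of 33 measured members of the hair cell list 24 were higher (72.7%, against 20.5% of all genes), 1 was lower and 8 were not called, with a median difference of 2.58 against -0.02 for all genes, and a median of 2.25 within the first slide and 3.02 within the second. Slc26a5, the outer hair cell motor prestin, did not pass the filter on dim probes. A list member could pass that filter through the CSE arrays alone, so counts of members higher in CSE are no support for a direction. No ESC array had 12 of the 33 hair cell genes well above background. The same held for 9 of 22 tectorial and otolith matrix, 7 of 33 otic and regional factor and 7 of 16 macrophage genes. Atoh1, the transcription factor that starts the hair cell program, read 5.03 and 5.03 in ESCs, not well above background, and 9.44, 8.77 and 9.11 in CSE, at least 13.7-fold higher (limma adjusted p = 0.00033). Pou4f3, needed for hair cell survival, read 5.95 and 5.40 in ESCs and 8.61, 8.55 and 9.12 in CSE (3.09). Gfi1 was at least 30.3-fold higher and Lhx3 differed by 3.48. Barhl1 depended on the probe, at -0.10 with one, not called, and 4.48 with the other.

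The same list holds genes of the hair cell's transduction apparatus. Tmc1, a pore-forming subunit of the transduction channel, read 5.01 and 5.03 in ESCs and 7.48, 7.43 and 7.92 in CSE (at least 4.88-fold). Tmc2, which precedes it in development, read 5.92 and 6.18 in ESCs and 5.82, 6.06 and 5.98 in CSE and did not pass the test (limma adjusted p = 0.8). The channel partners Lhfpl5 (3.88), Tmie (2.44) and Cib2 (4.42) were higher, as were the tip link cadherins Pcdh15 (at least 10.1-fold) and Cdh23 (at least 2.18-fold). The motor Myo7a read 7.94 and 7.39 in ESCs and 10.06, 10.31 and 10.49 in CSE (2.62), and Myo6 (2.40) and Myo15 (2.58) were also higher. The bundle proteins Ush1c (5.04), Grxcr1 (at least 13-fold) and Grxcr2 (at least 14.5-fold) passed. Espn (2.02) was called higher and Ush1g (-1.21) lower with all arrays, but they lost the call in 10 and 8 alternatives (limma adjusted p up to 0.14 without ES1 and 0.096 without ES1). At the synapses Otof (1.96) and the acetylcholine receptor subunit Chrna10 (5.32) were higher, while Chrna9 (0.67) and the glutamate transporter Slc17a8 (0.43) were not called. Myo3a (0.59), Ocm (1.37), Triobp (0.94) and Loxhd1 (-0.02) did not pass the test.

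Supporting cell genes were higher in 22 of 30 members (73.3%), lower in 1 and not called in 7 (median 2.99, with 2.97 and 3.05 within the slides). The gap junction genes Gjb2 and Gjb6, both mutated in hereditary deafness, had the largest shifts in the list besides Fabp7. Gjb6 read 4.76 and 4.53 in ESCs and 13.16, 13.20 and 13.29 in CSE, at least 237-fold higher. Lgr5, a Wnt-pathway receptor of progenitor-like supporting cells, read 4.62 and 5.28 in ESCs and 11.12, 11.04 and 11.02 in CSE, at least 53.2-fold higher. Sox9 (5.17), Sox10 (5.80), Isl1 (6.29), S100a1 (4.84), the potassium channel Kcnj10 (4.54), Fgfr3 (3.91) and Prox1 (at least 3.19-fold) were higher. Cd44 (0.40), Lgr6 (0.06), Gfap (-0.65) and Aqp4 (0.50) did not pass the test. Sox2, counted in this list too, was the member called lower.

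Notch signalling keeps supporting cells from turning into hair cells. The ligand Jag1 read 8.71 and 9.10 in ESCs and 12.60, 12.54 and 12.79 in CSE (3.73), whereas Dll3 was lower in CSE (-1.66). Jag2 (-0.94) and Dll1 (-1.33) were called lower with all arrays but lost the call in 14 and 8 alternatives (limma adjusted p up to 0.15 without ES1 and 0.094 without ES1). Among receptors Notch2 was higher (1.99), and Notch1 (1.80), Notch3 (0.52) and Notch4 (-0.29) were not called. The target Hes5 read 8.96 and 7.97 in ESCs and 13.48, 12.76 and 13.59 in CSE (4.82), and Hey1 (3.96), Heyl (4.52) and Hey2 (at least 4.09-fold) were higher. Hes1 read 8.62 and 7.38 in ESCs and 7.76, 6.83 and 7.41 in CSE and did not pass the test. Of the Wnt pathway the inhibitor Wif1 (5.57), the receptors Fzd1 (4.71) and Fzd9 (3.83) and the target Axin2 (1.83) were higher, and of the Bmp pathway Bmp4 (1.68), Id2 (2.38), Id3 (2.29) and Id4 (2.25). A second Bmp4 probe gave -1.10 and did not pass. Bmp7 read 11.63 and 7.72 in the ESC lines and 12.79, 12.87 and 13.06 in CSE, and was not called. Over the 33 genes of the 3 pathways 17 were higher (51.5%), 3 lower and 13 not called (median 1.83).

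Genes of the tectorial membrane and otolith matrix had the largest median of any list, 6.96, or 6.80 with genes at background set to their bound. Of 22 members 19 were higher in CSE (86.4%). The tectorins Tecta and Tectb, the main noncollagenous glycoproteins of the tectorial membrane, were at background in ESCs. Tecta read 4.91 and 5.03 in ESCs and 14.55, 15.17 and 14.45 in CSE. Tectb read 4.76 and 4.80 in ESCs and 16.60, 16.29 and 16.76 in CSE. Otoa, which anchors the membrane to the epithelium, read 4.91 and 4.80 in ESCs and 11.16, 11.78 and 11.21 in CSE, at least 66.6-fold higher. Otog (5.99), Otogl (at least 82.7-fold), the otoconial proteins Oc90 (11.72) and Otol1 (at least 11.8-fold), Matn4 (5.40) and Coch (3.16, limma adjusted p up to 0.078 without CSE3) were higher. So was the anion exchanger Slc26a4 (2.83), a membrane protein rather than a matrix protein. The collagens Col9a2 (7.22), Col9a3 (6.36), Col11a1 (7.61) and Col11a2 (7.34) were higher too. A second Col9a1 probe gave -0.17 and did not pass. Ceacam16, a tectorial membrane protein of later development, was not well above background in CSE, at 5.08, 4.97 and 4.79, and was lower than in ESCs (7.09 and 6.96). The list's median was 6.68 within the first slide and 7.11 within the second.

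The promoters of Tectb and Espn are shown as members of the tissue-specific groups. Tectb holds an octamer and Espn an E-box, the class of site bound by Atoh1 and related factors. The E-box CAGCTG was in 12.2% of the promoters of genes tested, 13.6% of those higher in CSE, 24.0% of 25 hair cell promoters and 27.3% of 22 supporting cell promoters. Lists of other cell types held it as often, with 27.3% of 11 macrophage promoters and 23.1% of both the 13 mesenchyme and the 13 endothelial promoters, as did the Notch, Wnt and Bmp genes (24.0% of 25), against 0.0% of 23 promoters of the otic factors. The Rfx motif was in 10.5% of promoters of genes tested, 4.0% of the 25 hair cell promoters and 9.09% of the 22 supporting cell promoters. The windows are chr4:152152390-152152639 (minus strand) and chr19:55180476-55180725 (plus).
Espn: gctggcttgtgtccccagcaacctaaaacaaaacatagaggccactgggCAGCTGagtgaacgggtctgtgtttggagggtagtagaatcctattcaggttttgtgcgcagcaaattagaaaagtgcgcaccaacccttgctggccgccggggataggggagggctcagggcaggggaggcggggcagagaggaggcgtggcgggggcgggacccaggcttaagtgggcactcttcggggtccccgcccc
Tectb: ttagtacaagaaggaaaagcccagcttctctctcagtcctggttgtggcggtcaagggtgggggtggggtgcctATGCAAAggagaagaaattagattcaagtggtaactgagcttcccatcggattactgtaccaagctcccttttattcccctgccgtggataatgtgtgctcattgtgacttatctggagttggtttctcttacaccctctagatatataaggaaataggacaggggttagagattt

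Transcription factors of the ear and of positional identity were higher in 24 of 33 members (72.7%), with none called lower (median 3.86). Gata3, required for the prosensory domain, read 8.12 and 7.21 in ESCs and 13.86, 14.19 and 13.90 in CSE (6.32). Nr2f1 (8.85), Six2 (6.995), Tbx2 (at least 89.6-fold), Nr2f2 (6.22), Nfib (6.08), Tbx18 (at least 51.6-fold), Irx3 (5.73), Lmx1a (4.67), Eya4 (3.86) and Emx2 (at least 6.59-fold) were higher. Tbx18 and Pou3f4 mark the mesenchyme of the inner ear rather than its epithelium. Eya1, an early otic cofactor, read 14.91 and 14.90 in ESCs and 14.86, 14.87 and 14.89 in CSE, a difference of -0.03. The otic placode genes Pax2 (-0.34), Pax8 (-1.25), Dlx5 (-0.53), Dlx6 (-0.41) and Neurog1 (-0.05) did not pass the test. Of 34 Hox genes, which pattern the body behind the ear, 9 were below the filter, 9 were lower in CSE, 15 were not called and Hoxa2 was higher (2.03, limma adjusted p up to 0.071 without CSE3). A Hox gene could pass the filter through the ESC arrays alone. With at least 3 arrays required 15 were tested and 5 were lower, with a median of -0.40 against -0.82, and without ES1 15 were tested and 4 lower, with a median of -0.43. Among those lower, Hoxa7 read 8.51 and 7.71 in ESCs and 5.77, 5.44 and 6.54 in CSE.

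Markers of cells other than hair and supporting cells were measured too. The mesenchyme list was higher in CSE for 15 of 18 members (83.3%, median 3.67), and all 18 were well above background on every CSE array, 14 of them on both ESC arrays. Lum read 15.46, 15.51 and 15.29 in CSE and 4.82 and 4.72 in ESCs, and Col3a1 (7.91), Ogn (at least 191-fold), Postn (at least 75.5-fold), Pdgfra (4.92) and Col1a2 (6.57) were higher. Mfap5 (-2.40) and Thy1 (-1.74, limma adjusted p up to 0.15 without ES2) were lower. Schwann and satellite glia markers were higher in 12 of 18 (66.7%), lower in 1 and not called in 5. Mal (4.96) was among those higher, as was Egr2 (3.997), which is an immediate early gene too. S100b, Fabp7 and Sox10 are shared with supporting cells. Macrophage markers were higher in 11 of 16 (68.8%), among them Tyrobp (at least 17.6-fold), Cx3cr1 (at least 21.9-fold), C1qc (at least 12.01-fold) and Ctss (at least 9.88-fold), while the pan-leukocyte gene Ptprc read 5.56, 5.58 and 5.82 in CSE and 5.46 and 6.07 in ESCs and did not pass. Mean log2 levels over the mesenchyme list were 8.003 and 8.33 in ESCs and 12.45, 12.06 and 12.05 in CSE. Over the macrophage list they were 6.47 and 6.23 in ESCs and 8.46, 8.26 and 8.38 in CSE, and over the glia list 7.85 and 7.32 in ESCs and 10.78, 10.36 and 10.55 in CSE. Well above background on every CSE array were 16 of 16 macrophage, 17 of 18 glia, 20 of 20 endothelial, 21 of 22 neuron, 9 of 11 erythroid and 9 of 12 melanocyte and strial genes. On both ESC arrays the same held for 7 macrophage, 12 glia, 13 endothelial, 20 neuron, 7 erythroid and 7 melanocyte and strial genes. What part these cells had in the other lists was not tested.

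Blood, vessel and nerve markers followed. The haemoglobin genes Hba-a1 and Hba-a2, near-identical copies whose probes may not separate them, were higher (6.68 and 7.34), and so were Hbb-b2 (at least 177-fold) and the erythroid haem enzyme Alas2 (at least 8.83-fold). The erythroid membrane gene Slc4a1 (-0.31) and the transcription factor Klf1 (-0.56) did not pass. Over 11 erythroid genes 4 were higher (36.4%, against 20.5% of all genes), 2 lower and 5 not called, with a median of -0.26. The share lower, 18.2%, equalled that over all genes. Of 20 endothelial and pericyte genes 11 were higher (55%, against 20.5% of all genes) and 2 lower (10%, against 18.2%). The count higher was 5 without CSE1, 5 without CSE3, 7 without ES1, 5 with the replicate number as a block and 4 within the first slide. Those higher included Emcn (at least 63.7-fold), Cd93 (at least 57.2-fold) and the pericyte gene Rgs5 (at least 22.1-fold), while Vwf was lower than in ESCs (-2.29). Pecam1 (-1.02) was called lower with all arrays and lost the call in 14 alternatives (limma adjusted p up to 0.18 without ES1). Of 22 spiral ganglion neuron genes 9 were higher (40.9%, against 20.5% of all genes), 1 lower and 12 not called. Their differences ran from -2.54 to 6.59, with a median of 1.01. Syt1 (6.59), Nefm (4.95), the neurotrophin receptor Ntrk3 (4.31) and Map2 (4.25) were higher, and Tubb3 read 11.71 and 11.81 in ESCs and 12.37, 12.45 and 11.09 in CSE without passing. The melanocyte enzyme Dct read 12.16, 11.25 and 9.17 in CSE and 5.26 and 5.38 in ESCs, whereas Tyr (-0.37) did not pass and Mlana (-1.98) and Pmel (-1.32) were lower with all arrays (limma adjusted p up to 0.13 without ES1 and 0.096 without ES2). Of strial channel genes Kcnq1 was higher (3.997) and Kcne1 was at background throughout.

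**Figure D3:**
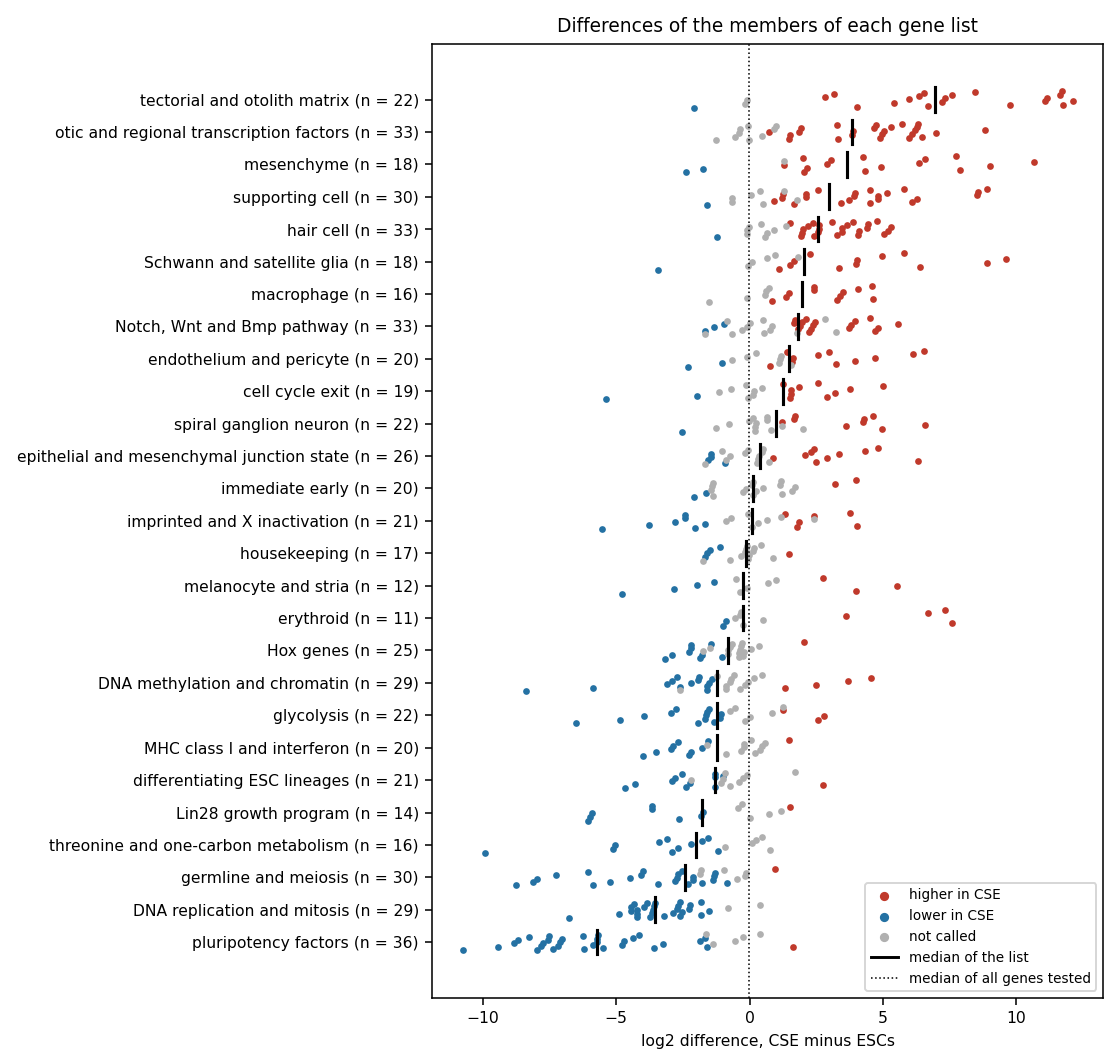
Log2 difference, CSE minus ESCs (x axis), of each measured member of the 27 gene lists (rows, ordered by median), red for members higher in CSE, blue for lower and grey for not called; the black bar is the list's median and the dotted line the median of all genes tested. The pluripotency list lies farthest left, at -5.73, and the tectorial and otolith matrix list farthest right, at 6.96.

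Of 24 early lineage genes 3 had no probe or were below the filter. Of the rest 11 were lower in CSE (52.4%, against 18.2% of all genes), 1 was higher and 9 were not called. These genes too could pass the filter through the ESC arrays alone. With at least 3 arrays required 14 were tested and 5 were lower. The count lower was 6 without ES2, 7 without ES1 or CSE1 and 6 with the replicate number as a block. Fgf5, a marker of the primed epiblast, read 9.19 and 9.83 in ESCs and 5.38, 4.94 and 5.28 in CSE, and Eomes (-2.53), Gata4 (-2.79), Hand1 (at least 6.42-fold), Cdx2 (at least 4.06-fold) and Zscan4f (at least 23.5-fold) were lower. Zscan4f belongs to a family of near-identical genes. Genes of interferon response and antigen processing were lower in CSE for 9 of 20 (45%, against 18.2% of all genes) and higher for 1. Bst2 read 13.74 and 12.34 in ESCs and 8.92, 8.49 and 9.69 in CSE (-4.01). The immunoproteasome subunits Psmb8 (-3.50), Psmb9 (-2.88) and Psmb10 (-2.19) were lower too. The class I heavy chain H2-K1 (-0.90) was not called and B2m, its light chain, was higher in CSE (1.48).

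Epithelial and mesenchymal junction genes were higher in 10 of 26 members (38.5%, against 20.5% of all genes), lower in 4 (15.4%, against 18.2%) and not called in 12. The claudins Cldn9 and Cldn14, both needed for hearing, were higher in CSE, at 8.37 and 7.94 in ESCs and 12.52, 12.99 and 13.41 in CSE for Cldn9 and a difference of 2.31 for Cldn14. Cldn11, the claudin of the strial basal cells, was higher by 6.33. Cdh2 (2.92), Vim (2.09), Zeb1 (2.42) and Zeb2 (4.32) were higher, while Cdh1 (-1.44), Esrp1 (-0.92, limma adjusted p up to 0.087 without CSE1) and Esrp2 (-1.44) were lower and Epcam (0.34) did not pass. Among imprinted genes Phlda2 (-5.54), Ascl2 (-3.78) and Dlk1 (-2.81) were lower in CSE and Igf2 (1.85), Plagl1 (1.79) and Cdkn1c higher. Xist, the RNA that silences 1 X chromosome in female cells, was not well above background in either ESC line, at 5.17 and 4.83, and read 8.37, 10.20 and 8.52 in CSE (at least 13-fold). Of ubiquitous genes Actb read 18.06 and 18.06 in ESCs and 18.05, 17.87 and 18.01 in CSE and was not called, nor was Ppia (-0.04), whereas Hprt (-1.68) and Tbp (-1.49) were lower in CSE.

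The CSE arrays were not alike in every gene. The immediate early gene Fos, a stimulus-responsive transcription factor, read 6.81, 5.50 and 13.73 on CSE1, CSE2 and CSE3, against 8.16 and 6.85 in ESCs. Fosb (6.82, 5.96 and 13.29), Egr1 (10.48, 9.54 and 14.58), Jun (11.56, 11.48 and 15.22) and Atf3 (6.31, 5.68 and 11.13) were also highest on CSE3. Over 20 immediate early genes the mean level was 8.64, 8.04 and 11.52 in CSE and 9.24 and 8.82 in ESCs, with the highest CSE value on CSE3 in all 19 that had a value on every array, and 16 of the 20 did not pass the test. The list's median difference was 0.13 with CSE3 and -0.60 without it. CSE3 lay on the second slide, and the part of the slide was not tested. The neuron list had a mean level of 11.22 and 11.16 on CSE1 and CSE2 and 10.30 on CSE3, and Dct was lowest there too. The endothelial genes Cdh5 (9.29, 7.17 and 8.83) and Tie1 (8.26, 6.33 and 7.80) were lowest on CSE2. CSE2 also held the lowest CSE value in 15 of 20 endothelial and pericyte, 25 of 33 Notch, Wnt and Bmp, 24 of 36 pluripotency and 14 of 20 interferon and antigen genes. It was lowest in 18 of 33 hair cell and 16 of 30 supporting cell genes, but in 2 of 22 neuron and 5 of 17 housekeeping genes. The share over all genes was not taken. Among the pluripotency genes 11 were not well above background on any CSE array, so their order lies within background signal. Syt10 read 11.90, 5.45 and 10.69 and the secreted Wfdc18 11.29, 5.94 and 7.36, with CSE2 lowest for both.

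Between the ESC lines, genes are named for the width of their spread. Zfp42, also called Rex1, read 11.03 and 14.75 on ES1 and ES2, and the KRAB zinc finger genes Zfp985 (6.37 and 12.96), Rex2 (6.02 and 11.57) and Zfp979 (7.14 and 12.52) were higher on ES2 as well. These zinc finger genes are close paralogues whose probes may share targets. The mitotic kinesin Kif20b read 6.71 and 12.20, and the neuropeptide Npy went the other way, at 11.55 and 5.85. Of these genes Zfp42 passed the test against CSE, and the other five did not. Npy read 12.36, 12.28 and 13.11 in CSE. With 1 array per line, line and slide cannot be told apart.

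**Figure D4:**
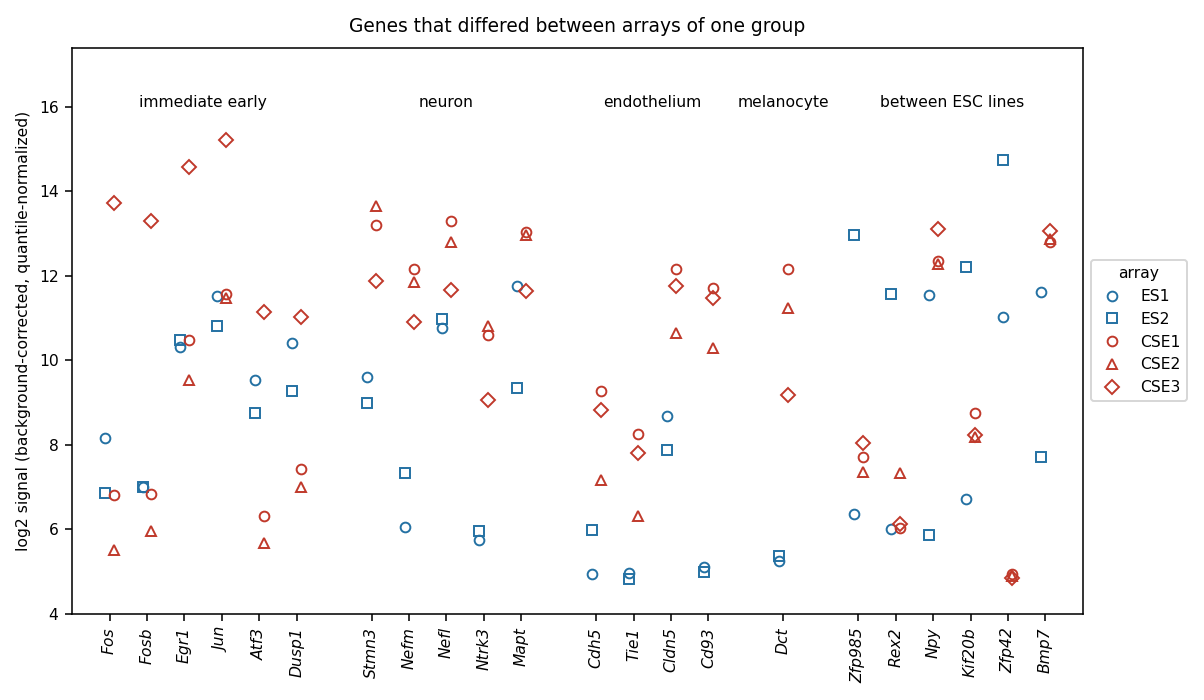
Log2 signal (y axis) of genes that differed between arrays of one group, ESC arrays in blue and CSE arrays in red, 1 symbol per array. CSE3 lies above the other CSE arrays for the immediate early genes and below them for Dct, CSE2 lies lowest for Cdh5 and Tie1, and the ESC lines lie apart for Zfp985, Rex2, Npy, Kif20b, Zfp42 and Bmp7.

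The CpG content of promoters is a feature the comparison did not use. The ratio of observed to expected CpG in the 250 bases before the start had a median of 0.634 over the 14430 tested genes with a window, 0.645 over genes higher in CSE and 0.719 over genes lower in CSE. The median was 0.394 for 548 genes higher in CSE and at background in ESCs and 0.348 for 209 genes of the reverse kind, beside 0.379 over all 27025 windows, tested or not. By list the median ran from 0.22 (erythroid) to 0.916 (housekeeping), with 0.863 for DNA replication and mitosis and for DNA methylation and chromatin, 0.641 for germline and meiosis, 0.325 for hair cell and 0.267 for tectorial and otolith matrix genes. The windows shown ran from 0.182 for Nanog, below the lowest list median, to 0.877 for Cdc6, with 0.233 for Tectb and 0.833 for Sox2. These are descriptions of sequence, with no test.

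**Figure D5:**
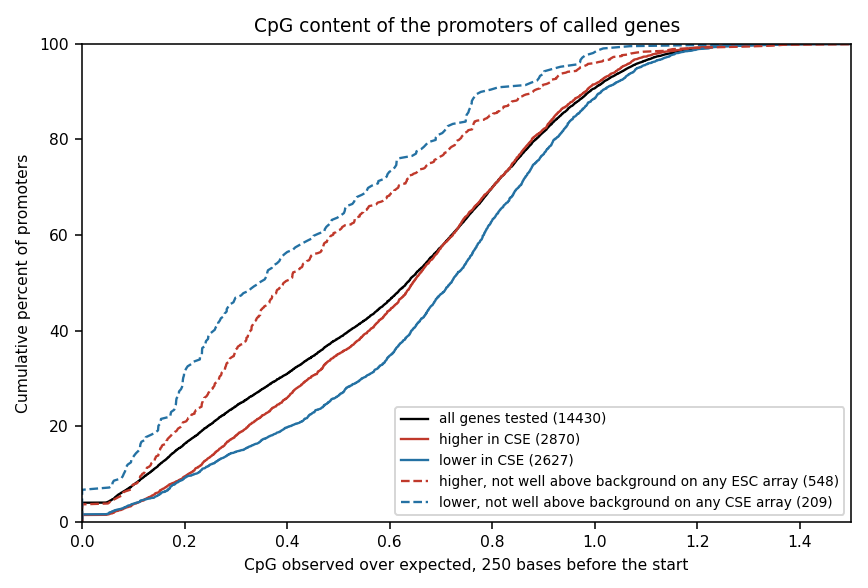
Cumulative percent of promoters (y axis) by ratio of observed to expected CpG (x axis), for all genes tested (black), genes higher in CSE (red) and lower in CSE (blue); broken lines are the called genes not well above background on any array of the other group. The broken lines lie to the left of the others and the blue line to the right.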

How the data were processed

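The deposited scanner files of single-colour Agilent arrays hold intensity values per spot (median signal and median local background). The authors labelled 50 or 100 ng of RNA, with the amount per sample not given in the sources used here, and their processing notes name limma. The paper describes background correction and quantile normalization in limma for its arrays. A deposited series table of log2 values, not traced to those steps here, was used as an alternative only.

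Intensities of the 5 arrays were corrected in R 4.3.3 with limma 3.58.1 (normexp, offset 16), stripped of control spots, put on a log2 scale and quantile-normalized. Outlier-flagged spots were left out and spots of one probe averaged. Probes were tested where their signal passed the 95th percentile of the negative controls by 10% on 2 or more arrays, with limma (empirical Bayes, Benjamini-Hochberg adjusted p under 0.05, tested on simulated data first). Accessions named 27405 of 55681 probes through RefSeq (GRCm38.p6), and 28276 stayed unnamed. The 2 slides carry different annotation editions. Array number limits precision.

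Leading genes named in the text were those with the largest differences, by bound where a group was at background, and those with the widest spread within a group. The gene lists and members were chosen with earlier results of these data known. Other list members were named as examples after their values were seen. Some genes that the rule or lists hold are not reported here. The alternatives tried were other offsets, scalings, filters, variance models, blocks, within-slide fits, left-out arrays, all 3 groups and the deposited table.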

Additional observations from a re-analysis of the deposited data

How the results depend on the processing

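The main setting called 5895 probes higher and 6258 lower in CSE. A scaling to the 75th percentile of the processed signal turned the direction of 92 called probes and median centring that of 82. The groups do not overlap in any called probe, and over all probes tested they do not overlap in 54.3%. A direction kept within a slide or without an array is therefore no sign of stability. These scalings moved the median difference over all probes from -0.08 to -0.24 each. Some list medians moved further under the processed-signal and median scalings. Glycolysis went from -1.22 to -2.27 and -2.22, and housekeeping from -0.125 to -0.92 and -0.90. DNA replication and mitosis went from -3.55 to -4.33 and -4.25, and the hair cell list from 2.58 to 3.87 and 2.50. The methods' test per probe called 2708 higher and 2830 lower, and the fit within the first slide 3606 and 3507. Leaving out 1 array gave 3730 to 5406 probes higher and 3856 to 5453 lower, the lowest counts being without CSE1. Whether the arrays' replicate numbers pair the samples could not be decided, because the deviations of the 2 ESC arrays mirror each other. Correlations of deviations were 0.0533 and 0.0603 for equal numbers, and -0.0603 for ES1 with CSE2 and -0.0533 for ES2 with CSE1. The fit with the replicate number as a block called 3579 higher and 3321 lower. Another probe of the same gene gave the opposite sign for Nanog (-6.13), Pigp (1.98), Col9a1 (-0.17), Bmp4 (-1.10) and Plagl1 (-0.29). Of 250 called genes named here or picked by the naming rule, 156 kept the call in every alternative with a test. Those genes were chosen from the same data, many for their size, so their share does not stand for all called genes. Among all 12153 called probes, 5217 kept the call in the methods' test per probe and 6095 within the first slide. The median of 22 of the 27 lists kept its sign in every setting, the exceptions being the erythroid, melanocyte and stria, junction, imprinted and immediate early lists. The within-slide fit of the second slide has 1 array per group and gives no test. Where no cause is given, the cause was not tested. Probes near background limit the size of a difference, which is then a bound.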
